A study of Mus musculus with 6 samples.

Results

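Macrophages and their blood precursors, the monocytes, were followed through 38 genes that are commonly used to recognise these cells, chosen by name; all 38 were among the 34745 genes of the deposited table. They were read in 6 tumours. The tumours grew from Hep1-6 cells, a line derived from a hepatoma of the mouse, injected beneath the skin of C57BL/6J mice that ate a normal diet (ND, 3 libraries) or a high cholesterol diet (HCD, 3 libraries). The labels name no further treatment, age or genotype, and they do not tell whether the 3 tumours of a diet grew in separate mice. The p-values then reflect only how far these samples spread. Where 3 values are given for a diet, they are those of libraries 1, 2 and 3 in that order. Values are FPKM, mapped fragments divided by gene length and by library size. A gene was tested when its mean over the libraries was at least 0.5 FPKM. Of the 38 genes, 36 passed, and Vsig4 and Timd4 did not.

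Tumours are entered by blood monocytes, which mature into macrophages under the growth factor CSF1, read by the receptor encoded by Csf1r. The transcription factor PU.1, encoded by Spi1, switches on much of the macrophage programme, including receptors that bind antibody, lectins that bind sugars on microbes and dead cells, and the oxidase of the respiratory burst. Macrophages that settle early in a tissue carry further genes, such as Timd4 and Lyve1, and cytokines push the cells towards states marked by Nos2 or by Retnla and Chil3.

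Promoter sequence is shown first, for the stretches that hold the letters bound by PU.1 and, for a subunit of the oxidase, by IRF factors. The RefSeq promoter table (GRCm38.p6, 250 bases before to 50 after each start) held 26 of the 38 genes in 32 windows. The PU.1 letters GAGGAAGT, searched on both strands, were in windows of 4 of these 26 genes (15.4%), against 3.69% of 27025 genes in the table. The IRF letters AANNGAAA were in windows of 12 of the 26 genes (46.2%), against 26.7% of genes in the table; the motifs can share bases at their edges. In the lines that follow capitals mark the motif, sequences run 5′ to 3′ along the gene, and ACTTCCTC is the PU.1 motif on the opposite strand. The gene's start is the RefSeq start, and only bases before it are printed. Of the 32 windows, 11 begin a GENCODE M21 transcript. For Cybb 1 of 5 IRF matches is shown.
Fcgr4, chr1:171018872-171018919, plus strand: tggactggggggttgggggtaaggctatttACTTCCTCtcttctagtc
Ly6c2, chr15:75112042-75112109, minus strand: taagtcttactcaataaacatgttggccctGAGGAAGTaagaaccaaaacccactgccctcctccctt
Pf4, chr5:90772395-90772434, plus strand: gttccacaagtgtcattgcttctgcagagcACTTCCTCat
Retnla, chr16:48842381-48842448, plus strand: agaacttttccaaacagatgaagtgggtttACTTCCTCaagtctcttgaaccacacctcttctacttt
Cybb (IRF letters), chrX:9469325-9469387, minus strand: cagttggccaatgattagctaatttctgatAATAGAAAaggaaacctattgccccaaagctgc

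These 5 genes did not share one pattern across the libraries. Fcgr4, Ly6c2 and Cybb were lowest in ND 1 and highest in HCD 2, as described below for most of the 36 tested genes, whereas Pf4 and Retnla followed other orders. A match of letters describes the sequence only.

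Most of the macrophage genes shared an order of libraries, with ND 1 low and HCD 2 high. Of the 36 tested genes, 30 were highest in HCD 2 (83.3%) and 24 were lowest in ND 1 (66.7%). Among all 13417 tested genes, HCD 2 was highest in 24% and ND 1 lowest in 27.3%. Both held together for 23 of the 36 (63.9%), against 11.9% of all tested genes. Lyz2, which encodes the lysozyme of myeloid cells and had the highest level of the 38, spanned 4.77-fold from ND 1 to HCD 2. Fcgr4 spanned 5.64-fold between the same libraries.

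**Figure D1:**
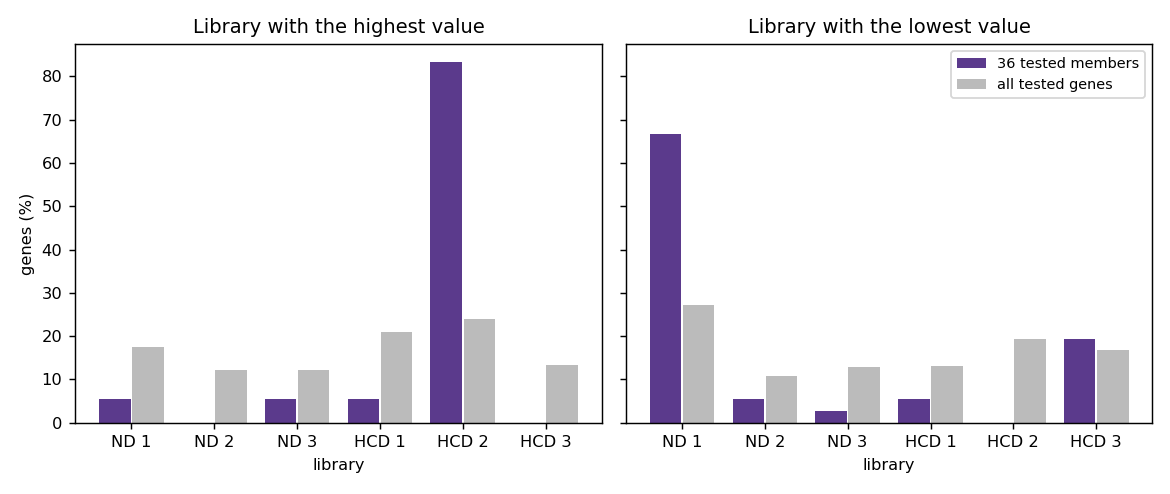
Share of genes (%, vertical axis) for which each library (horizontal axis) held the highest value (left) or the lowest value (right); dark bars are the 36 tested macrophage and monocyte genes and grey bars all 13417 tested genes. HCD 2 holds the highest value for 83.3% of the macrophage genes and ND 1 the lowest for 66.7%.

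The diet comparison called none of these genes. With limma on log2(FPKM + 1) and adjustment over all tested genes, 0 of 36 had an adjusted p under 0.05, where the background was 0% of 13417 genes higher and 0% lower. At an unadjusted p under 0.05 there was 1 of the 36 genes (2.78%), Cd14, against 5.88% of all tested genes (2.56% higher and 3.32% lower in HCD). The mean was higher in HCD for 29 of 36 genes (80.6%), against 55.7% of all tested genes. The median log2 difference, HCD minus ND, was 0.31 for the 36 genes and 0.02 for all genes. It was 0.07 without ND 1 and 0.03 without HCD 2, with 23 and 22 of 36 means higher. The diets did not overlap in 1 of 36 genes, Mertk, on the higher side, and in 0 on the lower side. The background was 5.98% and 6.13% of tested genes.

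Some lists of other cells' markers had the same extremes as the macrophage genes, and others did not. The summed level of 8 T cell genes was 8.43 FPKM in ND 1 and 63.1 FPKM in HCD 2, with 24.8 to 42.4 FPKM in the other libraries. The 7 dendritic cell genes summed to 10.7 FPKM in ND 1 against 34.3 FPKM in HCD 2, and the 5 endothelial genes to 49.2 and 106 FPKM. Itgax made up most of the dendritic cell sum, rising from 7.49 to 25.4 FPKM. Each dendritic cell gene was lowest in ND 1, but they differed in their highest library. Itgax, Xcr1, Clec9a and Siglech peaked in HCD 2, Flt3 and Ccr7 in ND 2, and Zbtb46 in HCD 1. The fibroblast sum fell from 1107 FPKM in ND 1 to 897 FPKM in HCD 2. Most of it was Dcn, which went from 914 to 682 FPKM. The other 4 fibroblast genes, Col1a1, Col1a2, Col3a1 and Pdgfra, were each highest in HCD 2. The hepatoma sum dropped from 2051 FPKM in ND 1 to 1548 FPKM in HCD 2, but was highest in HCD 3, at 2189 FPKM. The neutrophil sum was at 97.1, 41.4 and 103 FPKM in ND and at 40.0, 41.2 and 39.0 FPKM in HCD. It thus stood high in ND 1 and ND 3 and was nearly level elsewhere. Lymphatic vessel genes summed to 17.7 and 16.1 FPKM in ND 1 and HCD 2, and platelet genes to 10.9 and 16.7 FPKM. None of the genes in these lists was at 0 in all libraries, and their part in the result was not tested. In bulk tissue, fewer cells of a type and less RNA per cell cannot be told apart.

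**Figure D2:**
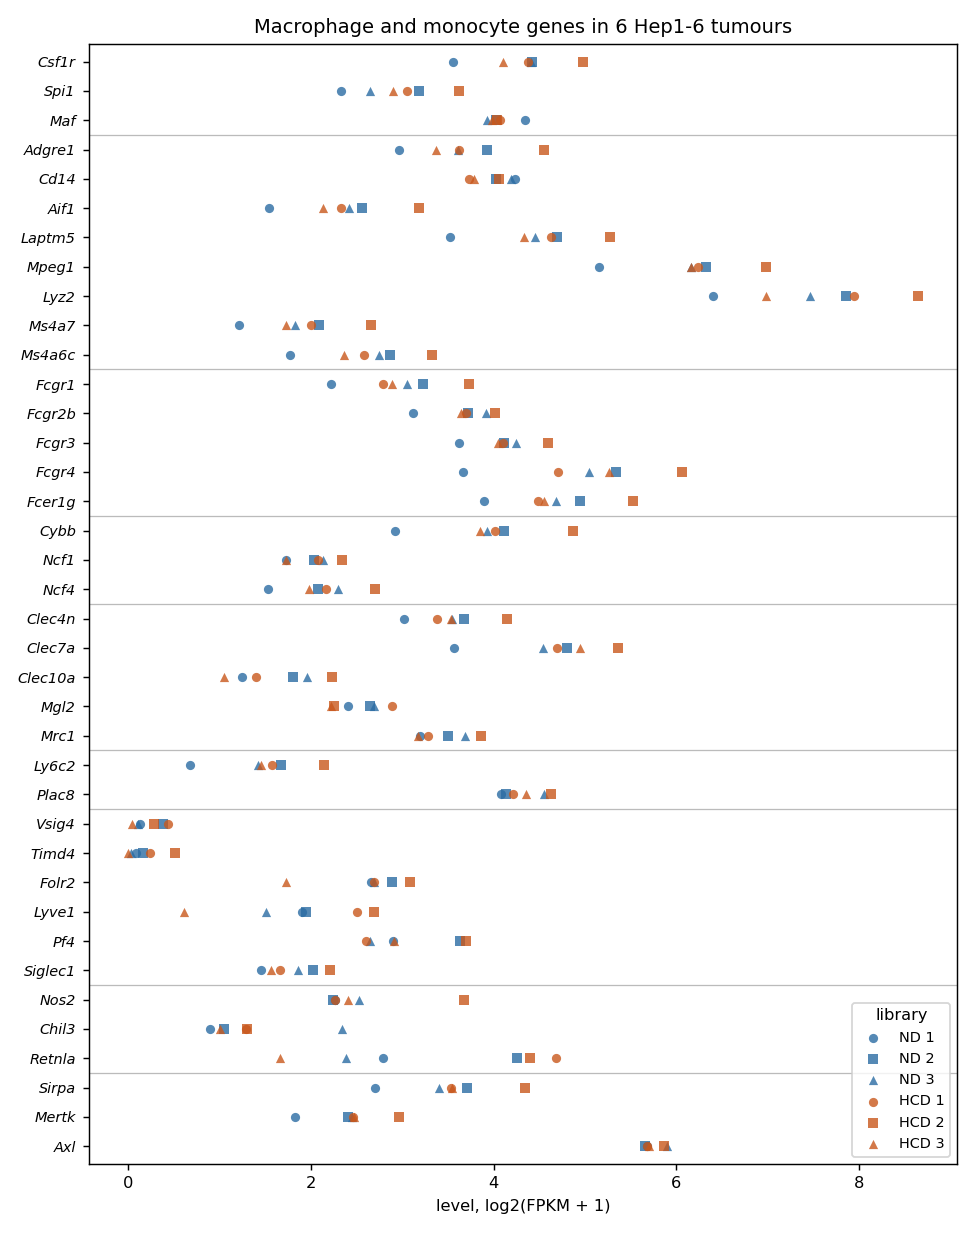
Level of each of the 38 genes (rows, grouped by role, italic symbols) as log2(FPKM + 1) on the horizontal axis; each point is 1 library, blue for ND and orange for HCD, with the shape giving the replicate number. For most rows the HCD 2 square lies farthest right and the ND 1 circle farthest left, and Vsig4 and Timd4 lie near 0.

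The lineage receptor and the lineage factors differed from one another. Csf1r, the CSF1 receptor, was at 10.8, 20.5 and 20.2 FPKM in ND and at 19.8, 30.5 and 16.2 FPKM in HCD. ND 1 stood below and HCD 2 above 4 libraries that lay between 16.2 and 20.5 FPKM, so the groups overlapped. Its log2 difference was 0.35 (95% interval -0.40 to 1.11, limma adjusted p = 0.816), and 0.07 without ND 1. Exons of Hmgxb3 on the opposite strand cover 15.1% of the Csf1r exon length, and no source used here says whether strand was counted. Hmgxb3 itself was at 13.0 to 13.9 FPKM. Spi1, which encodes PU.1, was at 4.04, 8.09 and 5.28 FPKM in ND and at 7.30, 11.3 and 6.47 FPKM in HCD. The groups overlapped again, and the log2 difference was 0.47 (95% interval -0.19 to 1.12, limma adjusted p = 0.794). Maf, a transcription factor of resident-type macrophages that other cells also use, ran flat, with a range of 1.36-fold over the 6 libraries. It was highest in ND 1, at 19.3 FPKM, where Csf1r and Spi1 were lowest.

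Surface, cytoplasmic and granule markers mostly followed Csf1r, and Cd14 did not. Adgre1, which encodes the F4/80 antigen, was at 6.82, 14.2 and 11.2 FPKM in ND and 11.3, 22.5 and 9.38 FPKM in HCD. HCD 3 lay below ND 2 and ND 3, and the log2 difference was 0.35 (95% interval -0.55 to 1.24, limma adjusted p = 0.845). Without HCD 2 the difference was -0.006. Lyz2 was at 83.6, 232 and 175 FPKM in ND and at 246, 399 and 125 FPKM in HCD. HCD 3 was thus below 2 of the 3 ND libraries, and the log2 difference of 0.61 had a 95% interval of -0.65 to 1.88. Without ND 1 it was 0.20. Lyz2 shares 15.4% of its 50-base stretches with Lyz1, a second lysozyme gene at 0.832 to 9.92 FPKM, so its level is slightly uncertain.

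Mpeg1, which encodes the pore-forming perforin-2, was the second most abundant of this group, with ND libraries at 61.4 ± 23.6 FPKM and HCD libraries at 90.1 ± 30.6 FPKM (SD, n = 3). Laptm5, a lysosomal membrane protein of blood cells, was at 18.7 ± 7.44 and 26.8 ± 9.65 FPKM (SD, n = 3). Aif1, which encodes the actin-binding protein IBA1, and the membrane proteins Ms4a7 and Ms4a6c were lower, with ND means of 3.73, 2.37 and 4.80 FPKM and HCD means of 5.17, 3.54 and 6.07 FPKM, in that order of genes. The log2 differences of these 5 genes ran from 0.30 for Ms4a6c to 0.58 for Mpeg1, and all were highest in HCD 2 and lowest in ND 1. Ms4a6c is uncertain, since 53.1% of its exon length lies in exons of BE692007 on the opposite strand.

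Cd14, the co-receptor for bacterial lipopolysaccharide, ran the other way. It was at 17.8, 15.3 and 17.3 FPKM in ND and at 12.3, 15.7 and 12.8 FPKM in HCD. HCD 1 and HCD 3 lay below every ND library, while HCD 2 lay above ND 2, so the groups overlapped. The log2 difference was -0.29 (95% interval -0.55 to -0.03), with an unadjusted limma p of 0.032 and an adjusted p of 0.794. Neutrophils also carry CD14. The summed level of 7 neutrophil genes was 97.1 and 103 FPKM in ND 1 and ND 3, the libraries with the highest Cd14, and between 39.0 and 41.4 FPKM in the other 4. In ND 1 and ND 3 most of the sum was S100a9, at 61.2 and 60.2 FPKM, against at most 20.4 FPKM elsewhere. ND 1 and ND 3 were also the highest libraries for S100a8, Cxcr2 and, narrowly, Csf3r. For Retnlg, Mmp8 and Ly6g they were not both the highest. Ly6g, a defining neutrophil gene, was at 0 in HCD 2 and highest in HCD 3, at 1.12 FPKM. The part of neutrophils in the Cd14 values was not tested.

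All 5 Fc receptor genes had a higher mean in HCD and were lowest in ND 1 and highest in HCD 2. Fcgr4, an activating receptor for IgG, was at 11.7, 39.5 and 32.0 FPKM in ND and at 25.2, 65.8 and 37.5 FPKM in HCD. HCD 1 lay below ND 2 and ND 3, and the log2 difference was 0.66 (95% interval -0.60 to 1.93, limma adjusted p = 0.805). Without ND 1 it was 0.15. Fcgr1, the high-affinity IgG receptor, was at 6.44 ± 2.46 and 8.22 ± 3.55 FPKM in ND and HCD (SD, n = 3). Fcer1g, the signalling chain that activating Fc receptors share, was at 22.8 ± 8.16 and 29.6 ± 13.2 FPKM (SD, n = 3). Fcgr3, another activating receptor, and Fcgr2b, the inhibitory one, spanned less, 2.04-fold and 1.97-fold over the libraries, against 3.37-fold for Fcgr1 and 5.64-fold for Fcgr4. Fcgr3 and Fcgr2b have 166 of their 50-base stretches in common, which is 9.58% of those of Fcgr3.

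The 3 genes of the phagocyte NADPH oxidase differed in span. Cybb, which encodes the catalytic subunit, was at 6.56, 16.4 and 14.2 FPKM in ND and at 15.2, 28.1 and 13.5 FPKM in HCD. Apart from ND 1 and HCD 2 the libraries lay close together, and the log2 difference was 0.59 (95% interval -0.36 to 1.54, limma adjusted p = 0.794). Ncf4, which encodes a cytosolic subunit, averaged 3.01 ± 1.03 FPKM across ND and 3.98 ± 1.35 FPKM across HCD (SD, n = 3). Ncf1, which encodes another, averaged 2.93 ± 0.560 and 3.21 ± 0.889 FPKM (SD, n = 3). The span was 4.29-fold for Cybb, 2.92-fold for Ncf4 and 1.77-fold for Ncf1. Exons of Gtf2ird2 on the opposite strand cover 11.1% of the Ncf1 exon length.

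C-type lectins, which bind sugars, differed in the sign of the log2 difference, with every interval including 0, although 4 of the 5 were highest in HCD 2. Clec7a, the beta-glucan receptor dectin-1, was at 10.9, 26.9 and 22.2 FPKM in ND and at 24.8, 40.1 and 29.9 FPKM in HCD. HCD 1 lay below ND 2, and the log2 difference was 0.69 (95% interval -0.13 to 1.52, limma adjusted p = 0.794). Without ND 1 it was 0.33. Clec4n, which encodes dectin-2, spanned 2.35-fold with a log2 difference of 0.27. By contrast, Mrc1, the mannose receptor CD206, was at 8.16, 10.4 and 11.9 FPKM in ND and at 8.74, 13.6 and 8.02 FPKM in HCD. The Mrc1 range of HCD enclosed that of ND, with a log2 difference of -0.02 (95% interval -0.54 to 0.49, limma adjusted p = 0.982). Clec10a and Mgl2, neighbouring genes for galactose-type lectins on chromosome 11, had differences of -0.11 and -0.13. They share 270 stretches of 50 bases, 12.2% of those of Mgl2, but differed in order: Clec10a was highest in HCD 2 at 3.69 FPKM and Mgl2 in HCD 1 at 6.38 FPKM.

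Both monocyte genes were lowest in ND 1 and highest in HCD 2, with unequal spans. Ly6c2, the marker of inflammatory monocytes, was at 0.602, 2.20 and 1.69 FPKM in ND and at 1.97, 3.44 and 1.74 FPKM in HCD. ND 2 lay above HCD 1 and HCD 3, and the log2 difference was 0.46 (95% interval -0.27 to 1.197, limma adjusted p = 0.794). Ly6c2 shares 13.9% of its 50-base stretches with Ly6c1, a gene also used by endothelium that stood at 24.0 to 50.3 FPKM, so the Ly6c2 level is uncertain. Plac8, which monocytes share with other white cells, was at 16.0, 16.6 and 22.4 FPKM in ND and at 17.5, 23.7 and 19.5 FPKM in HCD. Its span of 1.49-fold compared with 5.71-fold for Ly6c2, and its log2 difference was 0.14 (limma adjusted p = 0.855).

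**Figure D3:**
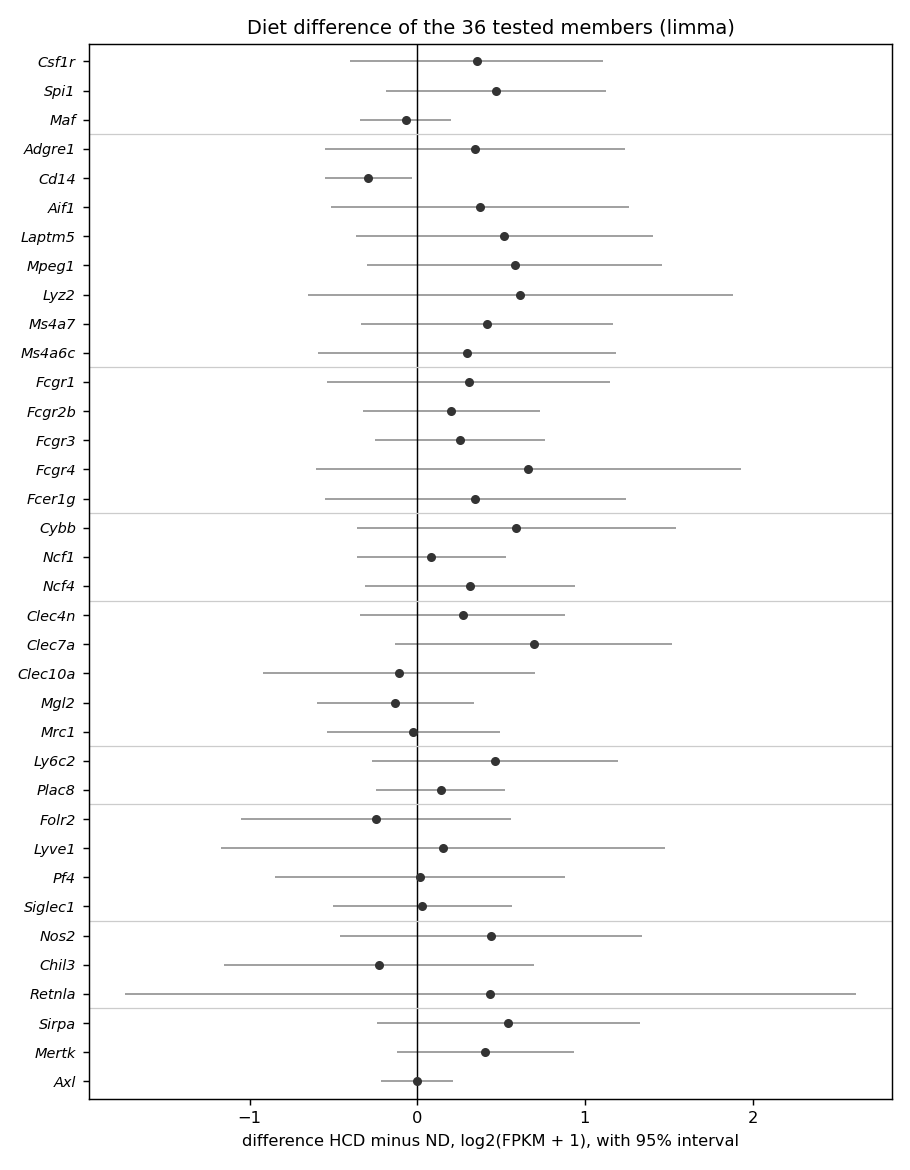
Diet difference on the log2(FPKM + 1) scale, with HCD above ND positive (horizontal axis), for the 36 tested genes (rows, grouped by role); points are limma estimates and bars 95% intervals, n = 3 libraries per diet. Estimates run from -0.29 for Cd14 to 0.69 for Clec7a, and the interval of every gene except Cd14 includes 0.

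Among genes of tissue-resident macrophages, Timd4 and Vsig4 were barely present, and the other 4 did not share one order. Timd4, a receptor for phosphatidylserine on dying cells, was at 0.060, 0.123 and 0.022 FPKM in ND and at 0.181, 0.428 and 0 FPKM in HCD. These values correspond to about 3, 7, 1, 8, 19 and 0 reads at the implied library sizes. Vsig4, a complement receptor of Kupffer cells and other resident macrophages, was at 0.098, 0.299 and 0.0815 FPKM in ND and at 0.358, 0.219 and 0.027 FPKM in HCD. At such levels no diet difference was detectable for either gene. Of 2 further Kupffer cell genes, Clec4f was listed at 0 in every library, and Cd5l ran from 0.279 FPKM in ND 1 to 5.87 FPKM in HCD 2.

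The other resident genes were measurable. Folr2, a folate receptor, was at 5.31, 6.40 and 5.48 FPKM in ND and at 5.46, 7.49 and 2.30 FPKM in HCD. HCD 3 stood apart below the other 5 libraries, and the log2 difference was -0.25 (95% interval -1.05 to 0.56, limma adjusted p = 0.870); without HCD 3 it was 0.14. Folr2 is uncertain, because 63.1% of its exon length lies within exons of Gm10602 on the opposite strand. Lyve1, a hyaluronan receptor of resident macrophages and lymphatic vessels, spanned 10.3-fold, from 0.532 FPKM in HCD 3 to 5.48 FPKM in HCD 2. Lymphatic vessel genes (Prox1, Flt4 and Pdpn) summed to 13.8 FPKM in HCD 3 and to between 15.2 and 18.01 FPKM elsewhere, but differed from one another. Pdpn was at 0.792 FPKM in HCD 3 and at least 2.41 FPKM elsewhere. Prox1 was at 7.77 FPKM in HCD 3 and at 6.35 to 8.02 FPKM elsewhere. Flt4 was at 5.23 FPKM in HCD 3 and at 5.24 FPKM in HCD 1, where Lyve1 was at 4.67 FPKM. The part of lymphatic vessels in the Lyve1 values was not tested.

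Pf4, a chemokine of platelets and some macrophages, was at 6.44, 11.4 and 5.25 FPKM in ND and at 5.06, 12.0 and 6.51 FPKM in HCD. ND 2 and HCD 2 were high and the other 4 libraries low, so the Pf4 difference was 0.01 (95% interval -0.85 to 0.88). The platelet sum did not share that order, at 10.9 to 20.8 FPKM, highest in ND 3, and nearly all from Ppbp. Itga2b and Gp1ba, below the level for testing, were highest in ND 2 and HCD 2, as Pf4 was. Itga2b was at 0.592 and 0.621 FPKM there, and Gp1ba at 0.213 and 0.396 FPKM. Gp9 and Treml1, lower still, did not share the Pf4 order. The part of platelets in the Pf4 values was not tested. Siglec1, the sialic acid receptor CD169, averaged 2.49 FPKM across ND and 2.59 FPKM across HCD, a log2 difference of 0.03, and was lowest in ND 1 and highest in HCD 2.

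Genes used to mark activation states each had an order of their own. Nos2, the inducible nitric oxide synthase, was at 3.82, 3.73 and 4.77 FPKM in ND and at 3.81, 11.8 and 4.30 FPKM in HCD. HCD 2 alone was high, and without it the log2 difference of 0.44 was -0.01. Chil3, a chitinase-like protein of alternatively activated macrophages and of neutrophils, was at 0.865, 1.07 and 4.07 FPKM in ND and at 1.45, 1.46 and 1.01 FPKM in HCD. ND 3 alone was high, and without it the difference of -0.23 was 0.23. Chil3 shares 16.9% of its 50-base stretches with Chil4, which was at most 0.040 FPKM. Neutrophil genes summed to 103 FPKM in ND 3 and to 97.1 FPKM in ND 1, where Chil3 was lowest.

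Retnla, a resistin-like protein of alternatively activated macrophages that adipose tissue also makes, had the widest span of the 36 tested genes, 11.5-fold. It was at 5.92, 18.2 and 4.22 FPKM in ND and at 24.7, 20.1 and 2.16 FPKM in HCD. ND 2, HCD 1 and HCD 2 were high in Retnla and the other 3 low, across both diets, and the log2 difference was 0.44 (95% interval -1.74 to 2.62, limma adjusted p = 0.915). Without HCD 1 it was -0.11. The same 3 libraries had the highest sums of adipocyte genes, 9.43, 10.2 and 12.4 FPKM in ND 2, HCD 1 and HCD 2 against 0.766 to 1.60 FPKM in the others. Most of that sum was Cfd. Lep, at very low levels, shared the split only in part. It was highest in HCD 2 and ND 2 and at 0 in ND 3 and HCD 3, but HCD 1, with 0.028 FPKM, lay below ND 1, with 0.037 FPKM. In ND 2, HCD 1 and HCD 2 Adipoq was at 0.882, 0.952 and 0.826 FPKM, against at most 0.120 FPKM elsewhere. Plin1, also low, was highest in the same 3 libraries. Skeletal muscle genes were also highest there, at 628, 739 and 71.1 FPKM against at most 10.8 FPKM, as were B cell genes, at 22.7, 25.4 and 41.6 FPKM against at most 5.99 FPKM. The part of attached tissue in the Retnla values was not tested. Without ND 2 and HCD 1, the libraries with the most muscle RNA, 29 of 36 means were higher in HCD and the median difference was 0.56. That omission kept ND 1 and HCD 2, on which the median rests. It was 0.07 without ND 1 alone and 0.03 without HCD 2 alone.

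**Figure D4:**
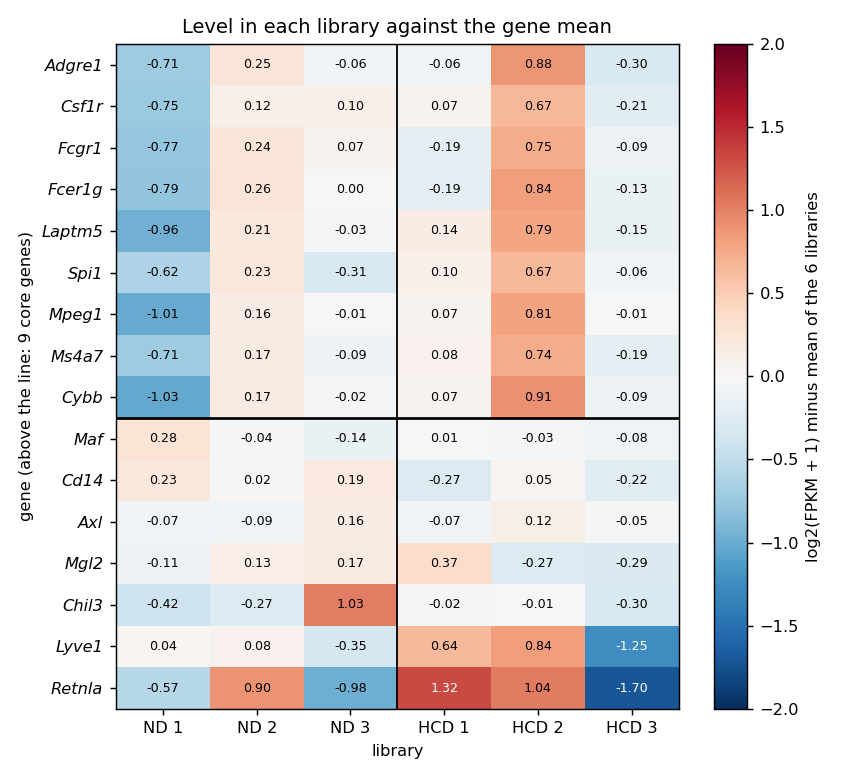
Level of 16 genes (rows) in each library (columns) as log2(FPKM + 1) minus the mean of the gene over the 6 libraries, in red where above and blue where below that mean; 9 core macrophage genes are above the horizontal line and 7 genes with other patterns beneath it. The core genes share a low ND 1 and a high HCD 2, while Retnla is high in ND 2, HCD 1 and HCD 2 and Chil3 in ND 3.

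Among receptors for recognition and engulfment, Mertk and Sirpa were lowest in ND 1 and highest in HCD 2, as Csf1r and Spi1 were. Mertk, a receptor kinase for uptake of dying cells, was at 2.54, 4.30 and 4.47 FPKM in ND and at 4.50, 6.84 and 4.56 FPKM in HCD. The Mertk groups did not overlap, but ND 3 and HCD 1 were separated by under 0.1 FPKM. The log2 difference was 0.41 (95% interval -0.12 to 0.93, limma adjusted p = 0.794). Sirpa, the receptor that reads the signal CD47, was at 9.04 ± 3.30 FPKM on the normal diet and 13.6 ± 5.03 FPKM on the cholesterol diet (SD, n = 3). Axl, a receptor kinase related to Mertk that tumour and stromal cells can also make, was the third most abundant of the 38 genes. It was at 50.1, 49.5 and 58.7 FPKM in ND and at 50.1, 57.1 and 51.0 FPKM in HCD, the smallest span of the set at 1.19-fold. Its log2 difference was 0.00047 (95% interval -0.21 to 0.22), and the sign turned under median-ratio scaling, at -0.009.

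To set the genes against a common macrophage level, the mean log2(FPKM + 1) of 9 core genes was taken in each library: Adgre1, Csf1r, Fcgr1, Fcer1g, Laptm5, Spi1, Mpeg1, Ms4a7 and Cybb. This mean was 3.09, 4.10 and 3.86 for ND and 3.91, 4.69 and 3.77 for HCD. Thus 4 libraries lay between 3.77 and 4.10, and ND 1 and HCD 2 were 1.60 apart. Relative to this mean, Aif1, Ly6c2, Sirpa and Ms4a7 moved least, with ranges of 0.19, 0.23, 0.25 and 0.17 log2 units. Retnla, Lyve1, Maf and Chil3 moved most, with ranges of 2.88, 1.97, 1.90 and 1.86.

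The core mean was 0.44 higher in HCD, but 0.14 without ND 1 and 0.15 without HCD 2, so differences relative to it rest on these libraries, and a gene with no diet difference of its own takes a relative difference of the opposite sign. Maf and Axl, which ran flat, had relative differences of -0.50 and -0.44, and -0.08 and -0.17 without ND 1. Those of Clec10a, Mrc1 and Mgl2 were -0.54, -0.46 and -0.57, and -0.46, -0.30 and -0.36 without ND 1. Without HCD 2 they were -0.60, -0.39 and -0.18. Those of Folr2 and Siglec1 were -0.68 and -0.41, and -0.43 and -0.27 without ND 1. Without HCD 2 they were -0.69 and -0.32. Those of Cd14 and Chil3 were -0.73 and -0.67, with -0.39 and -0.63 without ND 1 and -0.55 and -0.43 without HCD 2. For Mpeg1 and Cybb, which are part of the mean, and for Sirpa they were 0.14, 0.15 and 0.11. No test was made of these relative values, and leaving out libraries from the core mean was chosen after the data were seen.

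**Figure D5:**
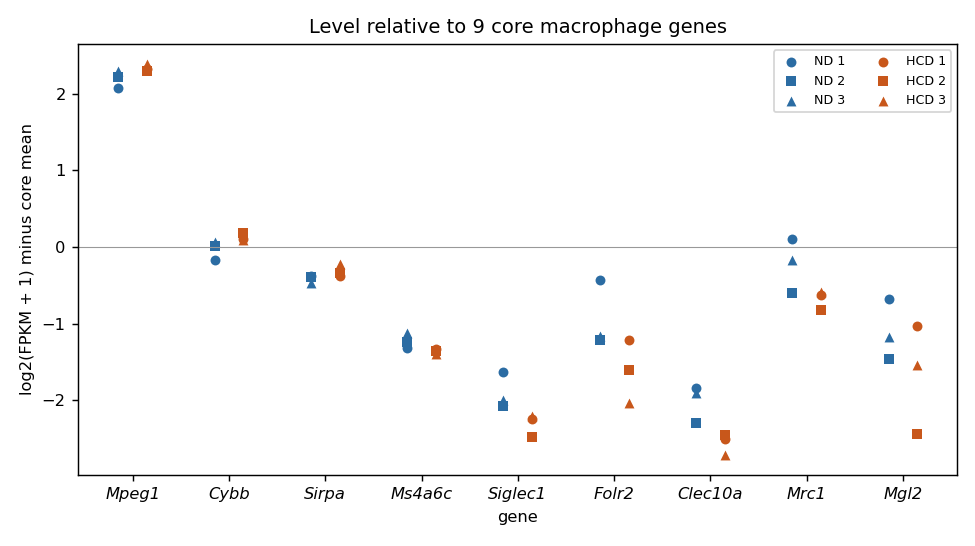
Level relative to the mean of 9 core macrophage genes (vertical axis, log2 units) for 9 genes (horizontal axis); each point is 1 library, blue for ND and orange for HCD, with the shape giving the replicate number. HCD minus ND is -0.54 for Clec10a, -0.68 for Folr2 and -0.41 for Siglec1, while the core mean itself is 0.44 higher in HCD, and ND 1 is the highest ND point for Siglec1, Folr2, Clec10a, Mrc1 and Mgl2.

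Of 47 further macrophage genes, 45 were tested, and limma called 0 of them at an adjusted p under 0.05. The mean was higher in HCD for 38 and lower for 7, with a median log2 difference of 0.22. In 29 of the 45 genes ND 1 was lowest and HCD 2 highest. Growth factors and their receptors were uneven: Csf1, the ligand of the Csf1r protein, ran from 5.86 FPKM in ND 1 up to 9.87 FPKM in HCD 2, Il34, its second ligand, was lowest in HCD 2 at 3.46 FPKM, and Csf2 lay below the level for testing. Tyrobp, a signalling adaptor, and Cyba, which encodes the second membrane subunit of the oxidase, followed the core genes. Between ND 1 and HCD 2, Tyrobp ran from 25.8 to 80.5 FPKM and Cyba from 14.9 to 60.7 FPKM. Ctss, a lysosomal protease, had a log2 difference of 0.83 (95% interval -0.30 to 1.96).

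Ligands of the engulfment receptors behaved unequally. Gas6, a ligand of the Axl and Mertk proteins, was at 17.4, 33.4 and 28.8 FPKM in ND and at 35.99, 47.8 and 17.7 FPKM in HCD. Pros1, the other ligand, had a log2 difference of -0.06, and Cd47, whose product is read by the Sirpa protein, one of 0.02. C5ar1, the receptor for complement C5a, had a difference of -0.53 (95% interval -0.94 to -0.13) with HCD below ND in every library, and did not pass the adjusted threshold. Of the 45 tested genes it alone stood at an unadjusted limma p under 0.05, against 5.88% of all tested genes, and groups set apart on the lower side were found in 6.13% of these.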

How the data were processed

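The deposited table holds 1 FPKM value for each gene in each sample, as the authors made it, per the file headers. From the submitters' processing notes come the tool names TopHat2 2.0.9, CASAVA 1.8, edgeR and HTSeq, and mm10 as the build, with no role for any of them. The annotation release and the strand setting are not given in the sources used here. The members and lists were chosen with earlier results of these data known. From the FPKM values, limma 3.58.1 in R 4.3.3 was fitted on log2(FPKM + 1) to 13417 genes whose mean reached 0.5 FPKM, with diet as the only term and a variance trend. Tests were two-sided, with p-values adjusted by Benjamini-Hochberg and a threshold of 0.05. The scale understates changes of low genes. The fit was tested on simulated data. Depth was read from the commonest value of FPKM times exon length, that of 1 read, and 1 FPKM came to between 20.4 and 26.2 fragments per kilobase of exon. Between 11495 and 12050 genes reached 1 FPKM. Read numbers are therefore approximate. Exon overlaps and 50-base stretches shared between transcripts of different genes, on either strand, were taken from GENCODE M21 (GRCm38, the assembly that mm10 denotes).

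Values in every library are given for the gene with the highest mean and the one with the lowest p in each role group, and for Adgre1, Csf1r, Cd14, Mrc1, Lyz2, Ly6c2, Timd4, Vsig4, Nos2, Chil3 and Retnla; Gas6 was added after its values were seen. Alternatives were a pseudocount of 0.1, no filter, a filter of 1 FPKM in 3 or more libraries, median-ratio scaling, the replicate number as a block, omission of ND 2 with HCD 1, and omission of each library in turn.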

Additional observations from a re-analysis of the deposited data

How the results depend on the processing

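No member was called in any setting run; the lowest adjusted p of a member was 0.543 (limma). With single libraries omitted there were 0 to 0 genes called higher, 0 to 1 lower (1, no member, without ND 2), 0 to 0 members called, 22 to 32 members with a higher mean and a median member difference of 0.03 to 0.49. The replicate block left 0 members called. In this balanced design a block cannot change a diet difference, so the 29 higher means and the median of 0.31 were bound to stay. Only p-values could move: the unadjusted limma p went from 0.086 to 0.009 for Clec7a and from 0.032 to 0.076 for Cd14. For Spi1, Fcgr4, Sirpa and Mertk it went from 0.131, 0.249, 0.143 and 0.108 to 0.011, 0.015, 0.019 and 0.046. Among members under 0.05 in either fit, only Cd14 had a higher p with the block. The share of all tested genes under 0.05 with the block was not counted. The lowest adjusted limma p of a member under the block was 0.794. Deviations of same-numbered libraries correlated at -0.19, 0.14 and 0.06, and no library correlated best with the library of its own number. With 3 libraries a diet such values cannot tell whether the numbers pair the samples, and the labels do not say. Signs turned for Axl under median-ratio scaling (-0.0093) and, without ND 2 and HCD 1, for Axl (-0.0078), Clec10a (0.037), Mrc1 (0.077) and Lyve1 (-0.048). Leaving out single libraries turned no sign for 20 members and at least 1 sign for 16. Of the 20, 19 moved by over 1.5 times from their difference over all 6 libraries. The exception was Cd14, at -0.29 over all libraries and -0.39 to -0.23 with a library left out. Among the 19 were Fcgr4 (0.15 to 0.99), Csf1r (0.07 to 0.55), Fcer1g (0.01 to 0.57), Lyz2 (0.20 to 1.05), Clec4n (0.04 to 0.42) and Clec7a (0.33 to 0.94). The ranges of the 16 were -0.057 to 0.078 for Axl, -0.44 to 0.15 for Clec10a, -0.0059 to 0.58 for Adgre1, -0.00030 to 0.50 for Fcgr1, -0.064 to 0.25 for Ncf1, -0.010 to 0.70 for Nos2, -0.028 to 0.37 for Fcgr2b, -0.23 to 0.11 for Mrc1, -0.17 to 0.16 for Siglec1, -0.30 to 0.30 for Pf4, -0.22 to 0.82 for Lyve1, -0.54 to 0.14 for Folr2, -0.49 to 0.23 for Chil3, -0.15 to 0.053 for Maf, -0.11 to 1.40 for Retnla and -0.046 to 0.50 for Ms4a6c. The cause was not tested. With 3 libraries a diet the median half-width of the members' 95% intervals was 0.80 log2 units, which limits what could be detected.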

Other observations

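Genes outside the set that ran most like it were taken from 4369 tested genes whose mean reached 10 FPKM, by Pearson's r over the 6 libraries with the mean profile of the 36 tested genes. The 8 closest were H2-M3, Acp5, Rac2, Unc93b1, Cyth4, Gm8995, Lcp1 and Sod2, with r from 0.988 to 0.998. H2-M3, a nonclassical MHC class I gene, ran from 5.81 FPKM in ND 1 to 16.9 FPKM in HCD 2. Acp5, the tartrate-resistant phosphatase of macrophages and osteoclasts, ran from 23.2 FPKM in ND 1 to 45.9 FPKM in HCD 2. Unc93b1, which escorts Toll-like receptors to endosomes, ran from 13.6 to 35.7 FPKM, and Rac2, a GTPase of the oxidase, from 7.97 to 25.0 FPKM between the same libraries. In all, 74 of the 4369 genes had an r of at least 0.95. So did 13 of the 36 genes themselves, each of which is part of the profile. These are descriptions over 6 points that share their libraries, and for the 8 genes ND 1 was the lowest library and HCD 2 the highest.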
